A study of Mus musculus with 2 samples.

Results

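The clustered protocadherins are a family of neuronal cell adhesion genes arranged in 3 neighbouring arrays, alpha, beta and gamma, on mouse chromosome 18. Members were taken by symbol: every gene in the deposited transcript table named Pcdha, Pcdhac, Pcdhb, Pcdhga, Pcdhgb or Pcdhgc followed only by digits. This gave 58 of the 23356 gene symbols in the table, 14 in the alpha, 22 in the beta and 22 in the gamma cluster, and each gene had a single RefSeq transcript. They are the same 58 symbols that RefSeq lists for the mouse assembly under this rule. The readthrough model Pcdha4-g, which the rule leaves out, was listed at 0 in both libraries.

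The study measured RNA of mouse retina taken at postnatal day 15, and each genotype, control and triple mutant, has a single library. The mice of both libraries carried loxP-flanked alleles of Dnmt1, Dnmt3a and Dnmt3b on both chromosomes, so the control is floxed and not unmodified. The mutant also carried Rx-Cre, a Cre recombinase transgene driven by regulatory sequence of the retinal homeobox gene Rx; the control lacked it. The strain is labelled C57BL/6 on the control sample and C57BL/7 on the mutant one, and how many animals gave each library is not stated. With 1 library per genotype no difference could be tested between genotypes, and "higher" and "lower" below compare these 2 libraries only. Levels are FPKM, fragments scaled to transcript length and to library size, which can be compared between genes because they are per length. A range in brackets after a percentage or a fold is its 95% interval for counting error alone, without the variation between animals.

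Of the genes to be deleted, Dnmt1 and Dnmt3a were lower but present in the mutant library, and Dnmt3b was low in both. Dnmt1, which maintains methylation at replication, stood at 21.7 FPKM in control and 11.6 FPKM in mutant retina, or 53.5% of the control. Dnmt3a stood at 87.4 and 56.0 FPKM (64.1%) and Dnmt3b at 1.03 and 0.827 FPKM (80.4%). These levels cover whole transcripts and all cells of the sample, so they do not measure the extent of deletion. The libraries carried the signal of retina: 9 of 10 rod markers were measured, with a summed level of 13477 FPKM in control and 11922 FPKM in mutant retina.

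Each clustered protocadherin protein has an extracellular part of cadherin repeats that pairs with the same isoform on a neighbouring cell. A neuron switches on a small set of alternate promoters, each in front of its own variable exon, and the choice is known to be tied to DNA methylation of the promoters and exons, to CTCF and cohesin, and to Dnmt3b in the embryo. The 5 C-type genes (Pcdhac1, Pcdhac2, Pcdhgc3, Pcdhgc4 and Pcdhgc5) are instead expressed in a more regular way. In the retina the gamma cluster is known for the self-avoidance of starburst amacrine cell dendrites and for the survival of interneurons and ganglion cells.

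The 3 clusters lie in tandem on the plus strand of GRCm38, the assembly that mm10 denotes. The alpha genes start from 36930285, the beta genes fill 37264998 to 37521419, and the gamma genes run from 37661775 to 37841873. The deposited table gives all 58 members the same locus, the whole region, so their order was taken from the RefSeq gene starts. All 36 alpha and gamma transcripts had 4 exons in the annotation, a variable first exon of 2346 to 3028 bases and 3 constant exons shared with the rest of their cluster. Except for Pcdhgb8, where 13.4% of the length was shared, the shared exons made up 41.7 to 54.9% of each alpha and gamma transcript. The 22 beta genes were single exons of 2340 to 5225 bases with no shared part. Fragments from the constant exons cannot be assigned to 1 gene by sequence, so an alpha or gamma level rests on its variable exon and on how the authors' software divided the rest. Of the 50-base windows in the variable exon, 76.6 to 89.9% were found in no other member for the 12 alpha alternate genes, 95.7 to 100% for gamma A, 82.1 to 97.3% for gamma B, 88.0 to 100% for beta and 100% for all 5 C-type genes. The number of fragments expected in windows of its own, computed from a member's level and the depth, had a median of 508 in the control library, from 19.4 for Pcdha8 to 5281 for Pcdhgc3.

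Nearly the whole family was on at a low and even level in both retinas. Of the 58 genes, 56 reached at least 1 FPKM in at least 1 library and are called measured here, and 48 lay between 1 and 10 FPKM in both. The 2 genes below 1 FPKM in both libraries were Pcdha8 (0.1996 FPKM in control and 0.535 FPKM in mutant retina) and Pcdhb1 (0.395 and 0.392). No member was listed at 0 in either library. The plot of levels by gene shows 2 genes far above the rest, the C-type genes Pcdhgc3, at 43.6 FPKM in control and 40.4 FPKM in mutant retina, and Pcdhgc4, at 22.4 and 20.01 FPKM.

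**Figure D1:**
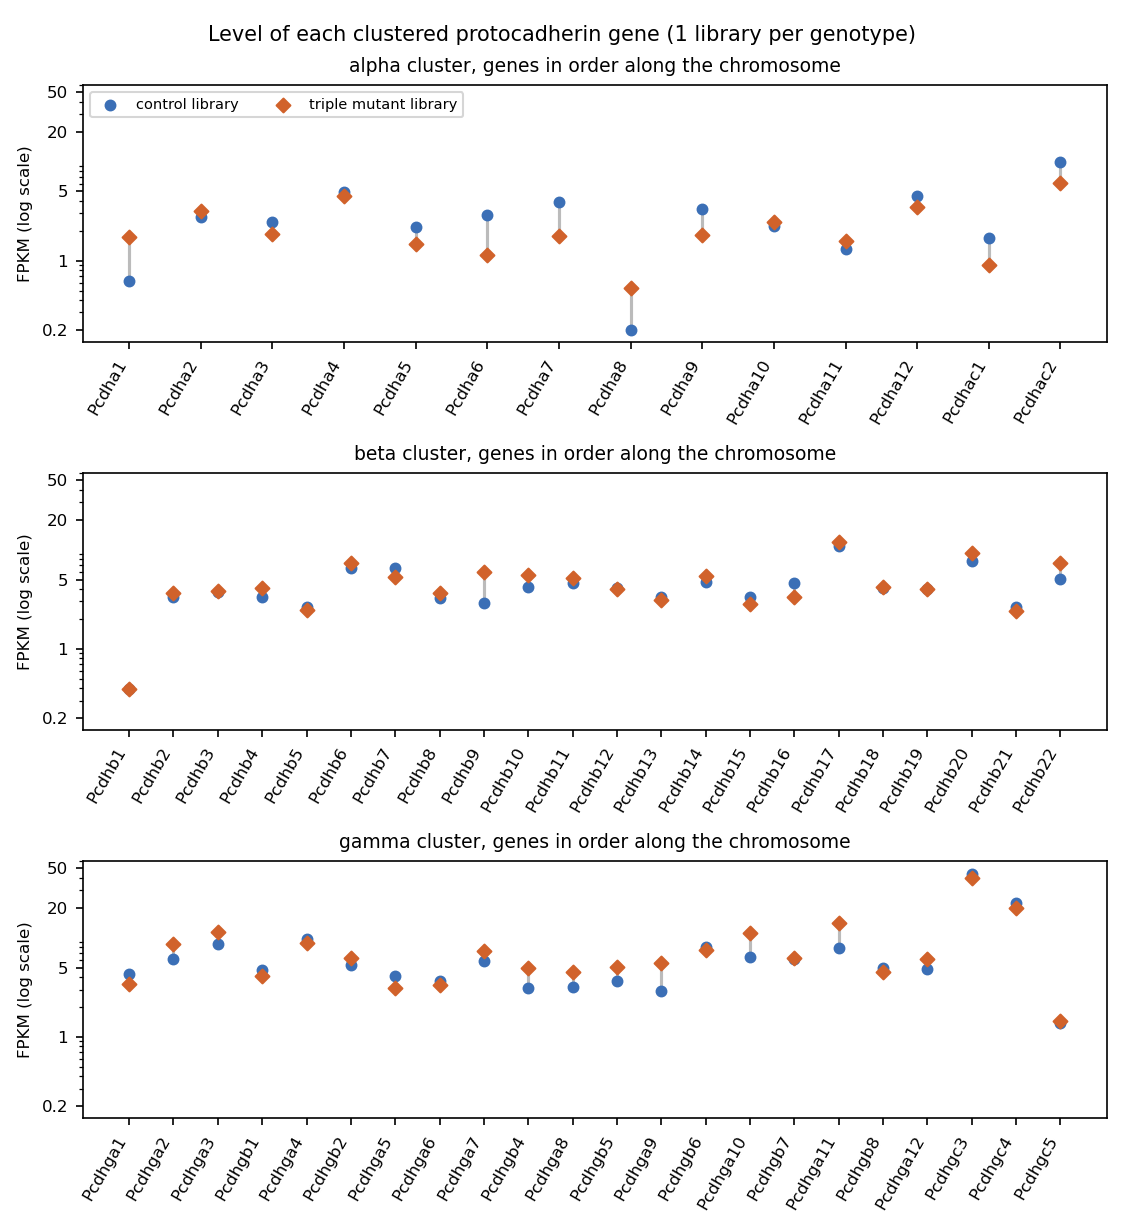
FPKM of each of the 58 genes on a log axis, in chromosome order within the alpha, beta and gamma clusters; circles are the control library, diamonds the triple mutant library, and grey lines join the 2 values of a gene. Most genes sit between 1 and 10 FPKM in both libraries, with Pcdhgc3 and Pcdhgc4 above and Pcdha8 and Pcdhb1 below.

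The summed level of the family was nearly the same in the libraries, and its parts went different ways. In bulk tissue, fewer cells of a type and less RNA per cell cannot be told apart. All 58 genes summed to 309 FPKM in control and 326 FPKM in mutant retina, or 105% of the control (104 to 107). The alpha cluster summed to 42.8 and 32.6 FPKM (76.1%, 72.9 to 79.3). The beta cluster summed to 96.0 and 105 FPKM (110%, 107 to 112) and the gamma cluster to 171 and 188 FPKM (110%, 108 to 112). Alpha thus made up 13.8% of the family sum in control and 9.99% in mutant retina. Within the gamma cluster the gamma A genes were higher, at 67.4 and 87.6 FPKM (130%, 126 to 134), gamma B summed to 35.9 and 38.5 FPKM (107%, 103 to 112), and the C-type genes were lower, at 67.3 and 61.9 FPKM (91.9%, 89.3 to 94.7). The cluster totals rested in part on which members were counted. They were also taken over the members with the most unique sequence in each cluster, a choice made after seeing the data. The log2 ratio of the totals was then 0.08 for beta against 0.13 over all, 0.07 for gamma against 0.14, and -0.50 for alpha against -0.39. In gamma these members include all C-type genes, which were lower in sum, and of gamma B only Pcdhgb8. Uniqueness and subfamily thus cannot be told apart there.

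**Figure D2:**
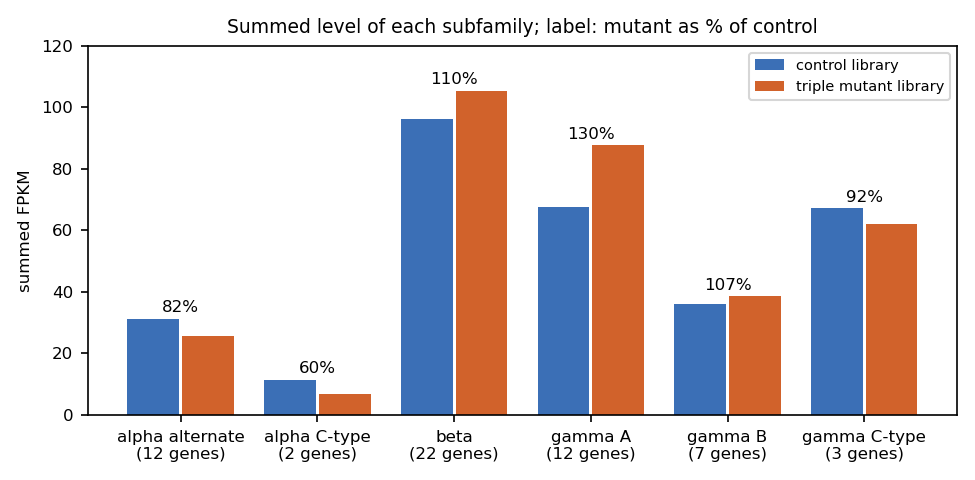
Summed FPKM of the 6 subfamilies in the control and triple mutant libraries; the label over each pair is the mutant sum as a percentage of the control. The 2 alpha groups and the gamma C-type genes are below 100%, gamma A stands highest relative to control at 130%, and beta and gamma B lie between.

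No measured member passed the larger size rule used here, a log2 ratio of 1 either way. On the scale of log2 of the ratio after adding 1 FPKM to both values, which understates the ratio of low genes, 0 of 56 measured members were higher by at least 1 and 0 were lower, where 1.84% of all 13280 measured genes were higher and 0.648% lower. With 0.1 FPKM added instead, 2 members passed upward and 2 downward, where 2.94% of all measured genes were higher and 1.36% lower. At a smaller size of 0.5, 6 members were higher (10.7%, against 5.37% of all measured genes) and 5 were lower (8.9%, against 4.74%). All 5 lower genes were in the alpha cluster, Pcdha6, Pcdha7, Pcdha9, Pcdhac1 and Pcdhac2, and 0 of the 43 measured beta and gamma genes were. The 6 higher genes were Pcdha1, Pcdhb9, Pcdhgb4, Pcdhga9, Pcdhga10 and Pcdhga11. With 5 FPKM added, 2 of the 6 and 0 of the 5 still passed 0.5, where the share of all measured genes past it was 2.45% higher and 1.66% lower. The authors' deposited table called 0 of the 58 members significant, against 0.353% of the transcripts it tested, with a q-value of 0.999 for each member.

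**Figure D3:**
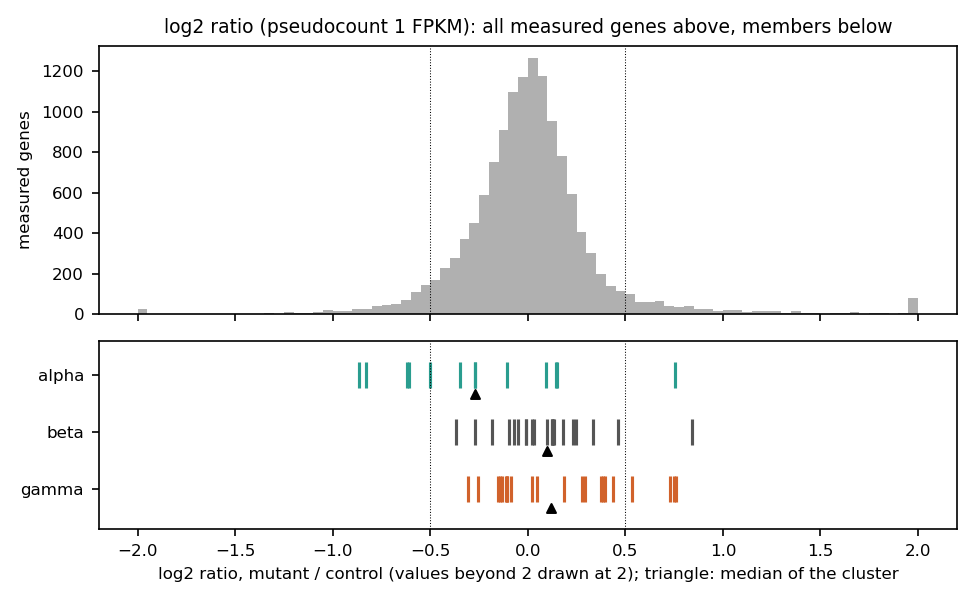
Above, the number of measured genes by log2 ratio of mutant to control FPKM (1 FPKM added); below, each measured member as a tick in its cluster, with a triangle at the cluster's median, and dotted lines at 0.5 either way. All measured members but Pcdha6, Pcdha7 and Pcdhb9 lie within the central 95% of all genes, with the alpha median at -0.27 and the beta and gamma medians at 0.10 and 0.12.

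The medians of the clusters stood on both sides of that of all genes, which was 0.00. Of 13 measured alpha genes 4 had a log2 ratio above 0, with a median of -0.27. Of 21 beta genes 13 did, with a median of 0.10, and of 22 gamma genes 13 did, with a median of 0.12, where 50% of all measured genes lay above 0. The central 95% of all genes ran from -0.63 to 0.82, and 3 members lay outside it: Pcdha6 (-0.86) and Pcdha7 (-0.83) below and Pcdhb9 (0.84) above.

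In the alpha cluster the C-type genes and a stretch of alternate genes were lower in the mutant library. Pcdhac2, the most abundant alpha gene in both libraries and the isoform that serotonergic axons need to spread out, stood at 9.80 FPKM in control and 6.04 FPKM in mutant retina (61.6%, 56.8 to 66.9). Pcdhac1 stood at 1.71 and 0.914 FPKM (53.5%, 42.5 to 66.8). Both variable exons were fully unique in sequence among the members, unlike those of the 12 alternate alpha genes, though about as much of their length was shared (52.8 and 48.6%). Together the pair summed to 11.5 FPKM in control and 6.96 FPKM in mutant retina (60.4%, 56.0 to 65.2).

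Alternate alpha genes encode isoforms that a neuron expresses in varying combinations, and 7 of the 11 measured were lower. The lowest ratios belonged to 2 neighbours. Pcdha6 stood at 2.89 FPKM in control and 1.14 FPKM in mutant retina (39.4%, 32.0 to 48.7), and Pcdha7 at 3.94 and 1.78 FPKM (45.1%, 37.5 to 54.0). Pcdha7 had the least unique variable exon of all members (76.6% of windows), so its level is among the least certain. Pcdha9 stood at 3.29 and 1.82 FPKM (55.2%, 46.4 to 65.5) and Pcdha5 at 2.17 and 1.49 FPKM (68.6%, 55.6 to 84.7). Pcdha3, at 2.46 and 1.87 FPKM, and Pcdha12, at 4.46 and 3.52 FPKM, were at 76.0% and 78.9% of the control. For these 6 genes the counting interval stayed below 100%. Pcdha4, the most abundant alternate alpha gene, stood at 4.91 and 4.50 FPKM (91.5%, 80.9 to 103.5), which counting error can span.

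Other alpha genes were level or higher. Pcdha2 (2.79 and 3.19 FPKM), Pcdha10 (2.25 and 2.47 FPKM) and Pcdha11 (1.32 and 1.56 FPKM) had ratios above 1 with counting intervals that included 1. Pcdha1, the first gene of the array, was low in the control and higher in the mutant, at 0.622 and 1.74 FPKM (2.80-fold, 2.09 to 3.83). Pcdha8, also low, stood at 0.1996 and 0.535 FPKM (2.68-fold, 1.60 to 4.83), with 19.4 fragments expected in windows of its own in the control. The 2 lowest alpha genes of the control were also the 2 with the highest ratios. The control level is the denominator of the ratio, so a low control and a high ratio are not independent.

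Neuron markers and cells other than neurons also differed between these libraries, and their part in the alpha difference was not tested. All 13 ganglion cell markers had log2 ratios below 0, with a summed level of 1065 FPKM in control and 717 FPKM in mutant retina. For amacrine cells 15 of 16 were below 0 (1181 and 929.5 FPKM), among them Chat, the acetylcholine synthesis gene of starburst cells, at 7.41 and 3.44 FPKM. For horizontal cells 5 of 7 were below 0 (238 and 178 FPKM), and for bipolar cells 9 of 12 were above 0 (966 and 1214 FPKM). Cone markers were below 0 in 10 of 11 (1205 and 807 FPKM), rod markers in 5 of 9, vascular markers in 7 of 10 (182 and 165 FPKM), and Mueller glia markers were above 0 in 8 of 10 (2461 and 2612 FPKM). Microglia markers were above 0 in 12 of 12 (32.3 and 141 FPKM). Outside the neural retina, lens markers were below 0 in 10 of 10 measured (238 and 45.8 FPKM, with Lim2 listed at 0 in the mutant). Pigment epithelium markers were below 0 in 9 of 10 (169 and 41.1 FPKM). No marker other than Lim2 was listed at 0.

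The beta genes are single-exon isoforms without the constant intracellular domain. Of 21 measured, 1 had a log2 ratio of at least 0.5 upward and 0 downward, near the 5.37% and 4.74% of all measured genes. The most abundant was Pcdhb17, at 10.9 FPKM in control and 12.02 FPKM in mutant retina (111%, 104 to 118), followed by Pcdhb20, at 7.70 and 9.32 FPKM (121%, 112 to 131). Pcdhb6 (6.58 and 7.26 FPKM) and Pcdhb7 (6.58 and 5.27 FPKM) had the same control level and went opposite ways, to 110% (101 to 120) and 80.1% (73.2 to 87.9).

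One beta gene stood apart. Pcdhb9 stood at 2.91 FPKM in control and 6.00 FPKM in mutant retina (2.06-fold, 1.82 to 2.33), the highest ratio among the measured beta and gamma genes. Its neighbours were closer to 1: Pcdhb8, at 3.27 and 3.67 FPKM, was at 112% (96.8 to 130.3) and Pcdhb10, at 4.20 and 5.54 FPKM, at 132% (118 to 148). Pcdhb22, the last gene of the array, stood at 5.10 and 7.40 FPKM (145%, 132 to 160).

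The other beta genes spread around equality. Pcdhb4 (3.32 and 4.07 FPKM), Pcdhb14 (4.68 and 5.45) and Pcdhb11 (4.64 and 5.15) were higher by 11 to 23% with counting intervals above 100%. Lower were Pcdhb16, at 4.59 and 3.33 FPKM (72.5%, 66.4 to 79.3), and Pcdhb15, at 3.34 and 2.82 FPKM (84.3%, 73.5 to 96.97). Pcdhb2 (3.31 and 3.61 FPKM), Pcdhb3 (3.76 and 3.86), Pcdhb5 (2.61 and 2.48), Pcdhb12 (4.08 and 4.05), Pcdhb13 (3.31 and 3.10), Pcdhb18 (4.08 and 4.15), Pcdhb19 (4.01 and 3.97) and Pcdhb21 (2.67 and 2.43) differed by less than counting error. Pcdhb1, known to lack the promoter element of the other beta genes, was the lowest beta gene in both libraries at 0.395 and 0.392 FPKM.

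In the gamma cluster the C-type genes Pcdhgc3 and Pcdhgc4 were slightly lower, while many alternate genes were higher. Pcdhgc3, which carries the largest single share of the family, stood at 43.6 FPKM in control and 40.4 FPKM in mutant retina (92.8%, 89.3 to 96.3). Pcdhgc4, the isoform known to be needed for neuronal survival, stood at 22.4 and 20.01 FPKM (89.5%, 85.1 to 94.1). Pcdhgc5 was low, at 1.37 and 1.45 FPKM (106%, 86.3 to 130.9).

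The gamma A and gamma B genes, 2 subfamilies whose variable exons alternate along the array, did not differ as 1 block. In order, Pcdhga1 stood at 4.31 FPKM in control and 3.44 FPKM in mutant retina (79.9%), Pcdhga2 at 6.14 and 8.68 (141%), Pcdhga3 at 8.58 and 11.4 (133%), Pcdhga4 at 9.65 and 8.88 (92.1%), Pcdhga5 at 4.08 and 3.10 (76.0%) and Pcdhga6 at 3.68 and 3.33 (90.5%). These first 6 gamma A genes were thus mixed, and summed to 36.4 and 38.9 FPKM (107%). The last 6 were all higher: Pcdhga7 at 5.77 and 7.31 FPKM (127%), Pcdhga8 at 3.16 and 4.47 (141%), Pcdhga9 at 2.89 and 5.58 (193%), Pcdhga10 at 6.37 and 11.2 (176%), Pcdhga11 at 7.93 and 14.0 (177%) and Pcdhga12 at 4.85 and 6.10 (126%). They summed to 31.0 and 48.7 FPKM (157%), and the most abundant gamma A gene was Pcdhga4 in the control and Pcdhga11 in the mutant.

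Gamma B genes among them followed another course. Pcdhgb4 stood at 3.11 FPKM in control and 4.94 FPKM in mutant retina (159%, 139 to 182), Pcdhgb5 at 3.66 and 5.08 (139%, 122 to 158) and Pcdhgb2 at 5.31 and 6.18 (116%, 104 to 131). The other 4 stayed within counting error of equality: Pcdhgb1 at 4.68 and 4.16 FPKM (88.7%, 78.2 to 100.9), Pcdhgb6 at 8.05 and 7.51 (93.4%, 85.1 to 102.6), Pcdhgb7 at 6.10 and 6.20 (102%, 91.9 to 112.3) and Pcdhgb8, a gene that GENCODE types as a polymorphic pseudogene, at 5.001 and 4.46 (89.3%, 78.9 to 101.1). At the 3' end this made a saw-tooth: Pcdhgb6, Pcdhgb7 and Pcdhgb8 lay between gamma A genes at 193, 176, 177 and 126% of the control. Of 7 gamma B genes, 5 had a lower ratio than both gamma A genes beside them and 2, Pcdhgb2 and Pcdhgb4, a higher one than both. The gamma B variable exons are less unique (a median of 88.4% of windows, against 99.7% for gamma A). In order from Pcdhgb1 to Pcdhgb8 the values were 83.2, 82.1, 89.6, 88.4, 88.1, 97.3 and 90.5%. Whether uniqueness bears on the ratios was not tested.

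**Figure D4:**
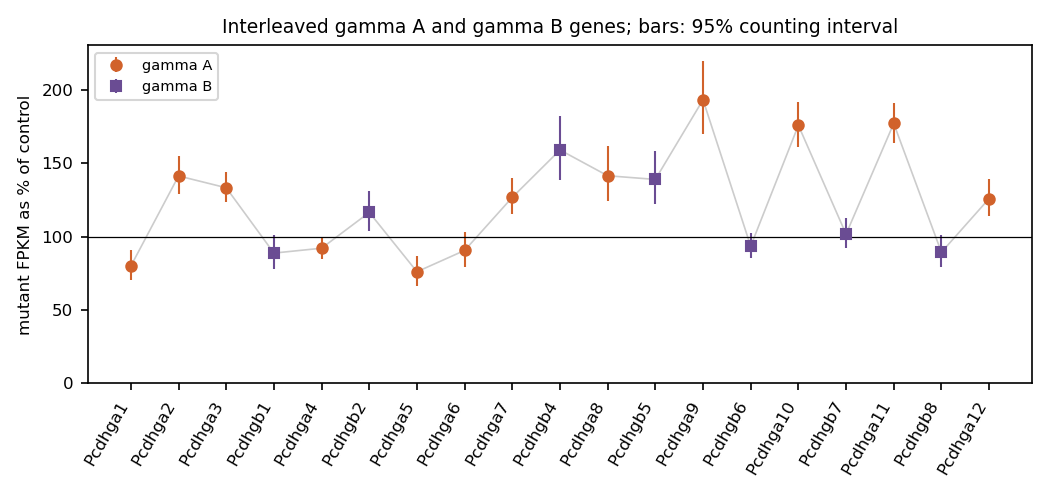
Mutant FPKM as a percentage of control for the 19 gamma A (circles) and gamma B (squares) genes in chromosome order, with 95% counting intervals and a line at 100%. From Pcdhga9 on, the gamma A genes stand at 126 to 193% and the gamma B genes between them at 89.3 to 102%.

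Position gave no common trend over the clusters. The rank correlation of the log2 ratio with gene order, a description over genes that share 2 libraries and with no test, was -0.41 over 13 alpha genes, -0.03 over 21 beta genes and 0.09 over 22 gamma genes. Among alternate alpha genes alone it was -0.27 (11 genes), among gamma A genes 0.48 (12 genes) and among gamma B genes -0.11 (7 genes). With the filter raised to 5 FPKM it was 0.45 for beta and -0.38 for gamma. Both ends of the alpha array differed: Pcdha1 at its 5' end was higher in the mutant, while the C-type genes 160 and 213 kb further on were lower.

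**Figure D5:**
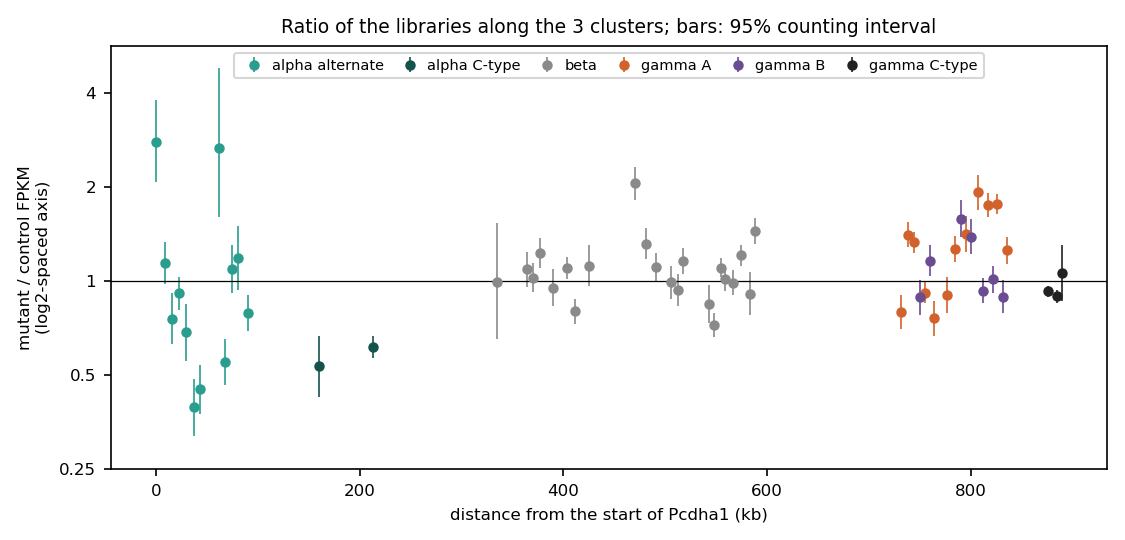
Ratio of mutant to control FPKM of each gene on a log2-spaced axis against the distance of its start from that of Pcdha1 in kb, coloured by subfamily, with 95% counting intervals and a line at 1. The alpha genes scatter from 0.394 to 2.80, and the beta genes lie between 0.725 and 1.45 apart from Pcdhb9 at 2.06. In the gamma cluster Pcdhga9, Pcdhga10 and Pcdhga11 stand highest.

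The CpG content of the variable exons, which are known to carry methylation when their promoter is silent, differed by cluster. Alternate alpha exons held 4.20 to 5.41 CpG per 100 bases, gamma B 4.03 to 5.53, gamma A 2.25 to 5.20 and beta exons 1.32 to 2.90. The beta exons are whole transcripts of 2340 to 5225 bases, and the alpha and gamma ones are first exons of 2346 to 3028 bases. Beta densities are thus not taken over like stretches, and they also go with exon length. Pcdhb16 and Pcdhb18, the longest at 5225 and 5039 bases, had the lowest beta densities, 1.32 and 1.57. Pcdhgc3 had the densest exon of the family, at 5.80. Over the 56 measured members, which mix clusters of different CpG density, the rank correlation of density with the log2 ratio was -0.08. Within subfamilies it was -0.20 over 11 alternate alpha genes, 0.20 over 21 beta genes, 0.48 over 12 gamma A genes and 0.50 over 7 gamma B genes. CpG density also went with gene order in gamma A (0.66) and less so in gamma B (0.29), and in gamma A density and order cannot be told apart.

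The evenness of each cluster was similar in the libraries, while the shares of single genes differed. The effective number of genes, the number of equally abundant genes that would give the same evenness (the exponential of the Shannon entropy), was 10.9 of 14 in the control and 11.7 in the mutant for alpha, 19.7 and 19.4 of 22 for beta and 14.9 and 16.2 of 22 for gamma. The rank correlation of a cluster's levels between the libraries was 0.76 for alpha, 0.79 for beta and 0.86 for gamma, and lower among alternate alpha genes (0.66) and gamma B genes (0.71). Pcdhac2 made up 22.9% of the alpha sum in the control and 18.6% in the mutant. Pcdha1 made up 1.45 and 5.35% of that sum, Pcdha7 9.19 and 5.45% and Pcdha6 6.76 and 3.50%. Pcdhgc3 made up 25.5 and 21.5% of the gamma sum and Pcdhgc4 13.1 and 10.6%, while Pcdhga11 went from 4.65 to 7.47%.

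Genes around the clusters showed no ratio past the smaller size, a count that so few genes give little weight. Of 27 other genes with usable values that lie between the clusters or within 500 kb of them, 25 were measured and 13 had a log2 ratio above 0. The number past 0.5 either way was 0, against 5.37% higher and 4.74% lower among all measured genes. Before the alpha cluster 11 of 16 were above 0, with a median of 0.05, and after the gamma cluster 2 of 8, with a median of -0.15 and the lowest at -0.39 (Rell2). Between beta and gamma lies Taf7, a subunit gene of the general transcription factor TFIID, at 9.03 and 8.67 FPKM. Among these measured genes, the nearest before the alpha cluster were Zmat2 (30.3 and 31.2 FPKM), Hars2 (12.7 and 11.5) and Hars (35.5 and 34.9). Nearest after the gamma cluster were Hdac3 (34.2 and 35.7), Rell2 (28.6 and 21.5) and Fchsd1 (2.20 and 1.89).

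Protocadherins outside the clusters were mostly lower in the mutant library. Of 12 measured on a list of 15, 11 had log2 ratios below 0 and 3 were lower by at least 0.5, with a median of -0.35; among all measured genes 4.74% were lower by that size. The 3 were Pcdh10, at 30.1 FPKM in control and 17.2 FPKM in mutant retina, Pcdh7, at 17.9 and 10.8, and Pcdh18, at 4.21 and 2.29. Pcdh15, a tip-link and photoreceptor gene, was equal at 39.5 and 40.1 FPKM. Classical cadherins and catenins had 2 of 22 lower by at least 0.5, Cdh3 (1.504 and 0.468 FPKM) and Cdh6 (5.69 and 3.35 FPKM), 0 higher, and a median of -0.15. Other molecules of neuronal self-recognition and layering had 2 of 24 lower and 0 higher, with a median of -0.24: Tenm1 stood at 2.87 and 1.36 FPKM and Tenm4 at 11.9 and 8.06. Dscam, which spaces amacrine and ganglion cells, stood at 14.7 and 10.6 FPKM.

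Regulators of the clusters were few past the smaller size, which 5.37% of all measured genes passed upward and 4.74% downward, so that counts of 0 or 1 in these lists are near the background. Of 12 measured genes of CTCF, cohesin and their regulators, 0 reached 0.5 either way, and the median was 0.01; Ctcf itself stood at 36.5 and 38.7 FPKM and the cohesin gene Rad21 at 62.9 and 64.0. Of 17 measured repressor genes of DNA and histone H3K9 methylation, 2 were lower by at least 0.5, the targeted Dnmt1 and Dnmt3a, and 0 were higher. Smchd1, a chromatin protein that silences protocadherin clusters, stood at 14.5 and 15.6 FPKM, and the H3K9 methyltransferase gene Setdb1, which acts on the same region in neurons, at 13.2 and 14.0. Of 21 measured intracellular partners and processing genes, 1 was lower by at least 0.5, the receptor tyrosine kinase gene Ret (15.9 and 10.5 FPKM), and 0 were higher. The sheddase gene Adam10 stood at 19.0 and 19.97 FPKM.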

How the data were processed

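Retinal RNA from 1 control and 1 triple mutant mouse sample was analysed, grouped by the genotype label. The submitters' processing notes name TopHat2 2.0.8, Cuffdiff 2.1.1 and the mm10 build. Read layout, strand and annotation release were not given in the sources used here. Without strand, fragments of members and antisense transcripts cannot be told apart. For each RefSeq transcript the authors deposited FPKM estimates and, per the file headers, a q-value of their own comparison. A second deposited table holds the same libraries: over the members its control FPKM are 0.972 times and its mutant FPKM 1.01 times those of the first.

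From these, FPKM were summed per symbol over usable genes (15318, with at least 1 row of status OK and none failed), and log2 ratios were taken with a pseudocount of 1 FPKM among genes of at least 1 FPKM in either library. No test was run, as there is 1 library per group. Depth came from the steps between low values of long single-transcript genes: 1 FPKM corresponded to 48.3 fragments per kb in the control and 56.0 in the mutant, with 75.3% and 71.4% of low values whole within 10% of a step. Intervals of 95% (exact binomial for genes, a normal approximation on the log scale for sums) use the fragments expected in 50-base windows found in no other member, and cover neither the division of shared sequence nor variation between animals. Exons came from GENCODE M21 transcripts matched to RefSeq for all 58 members, and for beta genes from the RefSeq span.

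The members and gene lists were chosen with earlier results of these data known. Every member is named; of the other lists, genes past the size rule and the 3 largest ratios could be named, and further ones (among them Chat, Ctcf, Rad21, Smchd1, Setdb1, Adam10, Dscam, Pcdh15) were chosen after their values were seen, as was the split of gamma A by order. Alternatives were the pseudocount, the filter, centring, the second table and the set of members. Python 3.11.15, numpy 2.4.6, pandas 2.3.3, scipy 1.17.1 and matplotlib 3.10.9 were used.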

Additional observations from a re-analysis of the deposited data

How the results depend on the processing

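No paired analysis was possible because each genotype has 1 library. In the second table, scaled differently, the log2 ratio of the cluster totals was -0.33 for alpha (-0.39 in the first table), 0.20 for beta (0.13) and 0.20 for gamma (0.14), each shifted by the 0.06 that the scaling adds to all members. Over members with unique windows at or above the cluster median it was -0.50, 0.076 and 0.071, and without the 3 most abundant genes the gamma value was 0.23; both choices were made after seeing the data. Adding 0.1 FPKM put 2 members past a log2 ratio of 1 upward and 2 downward, where there were 0, and 2 genes of the related lists downward; adding 5 FPKM left 2 members past 0.5 upward and 0 downward, where there were 6 and 5. Among genes of at least 5 FPKM, 1 member was lower by 0.5, the median of all members was 0.19 (0.03 at 1 FPKM), the rank correlation with order was 0.45 for beta and -0.38 for gamma, and alpha kept 1 gene, too few for a correlation. Without the C-type genes the effective number of gamma genes in the control was 17.9. Centring, status and single transcripts changed nothing, since the median of all genes was 0.00 and each member has 1 transcript with status OK. No cluster total changed sign in any setting run. Depth limits Pcdha8 and Pcdhb1 most, at 19.4 and 44.0 fragments expected in windows of their own in the control.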
